A study of Homo sapiens with 6 samples.

Results

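ADIPOR1, VAMP3, TMEM258 and CARD8 are genes that other work has reported as changed by the long noncoding RNA ANRIL. Here they were followed in human umbilical vein endothelial cells (HUVECs), primary cells that line the vein of the umbilical cord, in which ANRIL was targeted by siRNA or which received a scrambled control siRNA. The members were all probe sets that the platform annotation assigns to exactly 1 of these symbols, under the current name or an older one. This rule took 9 of the 54613 probe sets tested, with 1 for ADIPOR1, 3 for VAMP3, 1 for TMEM258 (formerly C11orf10) and 4 for CARD8. The rule used no measured value.

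The ANRIL siRNA group and the control siRNA group each held 3 transfected samples, each read on 1 Affymetrix Human Genome U133 Plus 2.0 array. All 6 samples were HUVECs kept in the same endothelial growth medium with growth factors and transfected transiently with the same non-liposomal reagent. The knockdown used 1 siRNA sequence, so loss of ANRIL and other effects of that duplex cannot be told apart. The sources used here do not state the siRNA dose, the time of harvest or whether the 3 samples of a group came from separate donors. The p-values therefore measure the spread between these samples, which may be technical.

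ANRIL, listed as CDKN2B-AS1, is made antisense to CDKN2B at 9p21, a stretch of the genome associated with coronary artery disease, and it binds Polycomb proteins. It has been reported to act in cis on its neighbours and in trans on genes elsewhere in the genome. The 4 genes followed here lie on other chromosomes and have different functions. ADIPOR1 encodes a receptor for adiponectin, a hormone of fat tissue that acts on endothelium through AMP-activated kinase. VAMP3, or cellubrevin, is a SNARE protein that drives fusion of recycling endosomes with the plasma membrane. TMEM258 is a small subunit of the oligosaccharyltransferase, which attaches glycans to proteins entering the endoplasmic reticulum. CARD8 is a relative of the inflammasome sensor NLRP1 and also restrains NF-kB signalling.

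The ANRIL siRNA strands given for the treated group are shown because they define that group. Capitals mark the 2 bases at the 3' end of the antisense strand that stay unpaired when its other 25 bases pair with the sense strand.
Sense: ggauaugugccaugaguaagaauaa
Antisense: uuauucuuacucauggcacauauccAU

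The values were log2 intensities made by RMA, which corrects background, normalizes across arrays and summarises the probes of a probe set. ANRIL itself was read by 1 probe set near the floor of the array (signal percentile 9.39), and it differed by −0.10 ± 0.10 (SE, n = 3 per group, limma adjusted p = 0.666), so these arrays gave no check of the knockdown. All 11 endothelial markers lay between percentiles 78.2 and 99.2 of gene signal and all 11 were below 0 in difference, with a median of −0.19. After cyclic loess 10 of the 11 were below 0 and the median was −0.11, and with an intensity-trended robust prior in limma 6 of the 11 passed, against 2.74% of all genes. The leukocyte markers were above 0 at 7 of 8, with array medians of 5.84 to 6.03 with ANRIL siRNA and 5.66 to 5.80 with control siRNA. They were dimmer, between percentiles 7.9 and 57.95 of gene signal. Most dim probe sets were above 0, with 32.5% below 0 in the dimmest decile of mean signal and 34.7% in decile 6. These deciles are of all probe sets, a scale unlike the gene percentiles. CD79A (0.26) and CD3E (0.22), the brightest leukocyte markers, fall by their signal in decile 8, where 60.7% were below 0. After cyclic loess 2 of the 8 leukocyte markers were below 0 and the median was 0.12, and with the trended prior 0 passed. Smooth muscle, fibroblast and epithelial markers had median differences of 0.10, −0.05 and −0.01, with 5, 3 and 4 of 8 above 0. With the trended prior 1, 0 and 1 of them passed. These were ACTA2 at −0.26, with 2 of its 3 probe sets below 0, and KRT18 at −0.20. The 3' over 5' signal of ACTB was 0.72 ± 0.13 with ANRIL siRNA and 0.54 ± 0.05 with control siRNA (SD, n = 3 each, log2, exact two-sided permutation p = 0.2, with 0.1 the lowest that 3 against 3 allows). That of GAPDH was 0.046, 0.091 and 0.035 with ANRIL siRNA and −0.010, 0.013 and −0.006 with control siRNA, without overlap (log2, exact two-sided permutation p = 0.1). The part of these shifts in the results below was not tested.

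None of the 9 member probe sets passed the threshold, an adjusted p under 0.05 by limma with Benjamini-Hochberg adjustment over all probe sets. All 9 had a difference below 0, ANRIL siRNA minus control siRNA, from −0.20 at one VAMP3 probe set to −0.05 at TMEM258, with adjusted p-values of 0.278 to 0.792. Over the whole table the same fit called 0% of probe sets, and 46.1% of probe sets were below 0. At an unadjusted p under 0.05, 2 of the 9 were lower, both of VAMP3, against 6.14% of all probe sets lower at that level, 8.96% higher and 15.1% in either direction. With an intensity-trended robust prior limma called 0.63% of all probe sets, and 0 of the 9. The ANRIL siRNA arrays lay wholly below the control arrays at 4 of the 9, against 9.97% of all probe sets in that direction, 11% the other way and 21% in either. These shares vary with signal over the table. In the brightest decile of mean signal, which holds both of those VAMP3 probe sets, 16.3% had an unadjusted p under 0.05 in either direction. The 4 members without overlap also lay in that decile, where ANRIL siRNA was wholly below control at 34.8% of probe sets.

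ADIPOR1, the adiponectin receptor with high affinity for the globular form, had 1 probe set, 217748_at. Its log2 values were 10.22, 10.19 and 10.11 with ANRIL siRNA and 10.25, 10.31 and 10.24 with control siRNA. The 3 ANRIL siRNA arrays lay below the 3 controls, but the highest of them came within the controls' own spread of the lowest control. ADIPOR1 thus differed by −0.09 ± 0.07 (SE, limma adjusted p = 0.526, n = 3 per group), with a 95% interval from −0.24 to 0.06. On the linear scale this is 0.939 of the control level, with an interval of 0.849 to 1.04. The difference was −0.06 without ANRIL siRNA replicate 3 and −0.14 with arrays centred on their medians. Repeated quantile normalization brought it to −0.003 and cyclic loess to −0.01.

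VAMP3 had 3 probe sets, and their differences were unequal. At the brightest, 201336_at, the values were 12.59, 12.65 and 12.55 with ANRIL siRNA and 12.64, 12.69 and 12.66 with control siRNA. The groups overlapped there, since ANRIL siRNA replicate 2 stood above control replicate 1, and the difference was −0.07 ± 0.06 (95% interval −0.21 to 0.08, limma adjusted p = 0.641, n = 3 per group). It was −0.04 without ANRIL siRNA replicate 3 and −0.12 with arrays centred on their medians. Repeated quantile normalization brought it to −0.001. At 211749_s_at the values were 11.65, 11.77 and 11.78 with ANRIL siRNA and 11.91, 11.92 and 11.89 with control siRNA. Here the groups did not overlap, the controls varied little, and ANRIL siRNA replicate 1 was the lowest. The difference was −0.17 ± 0.07 (95% interval −0.32 to −0.03, unadjusted p = 0.0245, limma adjusted p = 0.278, n = 3 per group), or 0.886 of the control level.

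The dimmest VAMP3 probe set, 201337_s_at, read 10.724, 10.69 and 10.929 with ANRIL siRNA and 10.924, 11.009 and 10.996 with control siRNA. ANRIL siRNA replicate 3 reached into the control range, while replicates 1 and 2 were well below it. The difference was −0.20 ± 0.08 (95% interval −0.37 to −0.02, unadjusted p = 0.0322, limma adjusted p = 0.293, n = 3 per group), and it was −0.27 without ANRIL siRNA replicate 3. As the mean of its 3 probe sets, VAMP3 differed by −0.15 ± 0.05 and did not pass over all genes (limma adjusted p = 0.21).

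TMEM258 had 1 probe set, 218213_s_at, among the brightest of the array. Its values were 13.21, 13.32 and 13.23 with ANRIL siRNA and 13.30, 13.31 and 13.29 with control siRNA. ANRIL siRNA replicate 2 was the highest of all 6 arrays, so the groups overlapped. The difference was −0.05 ± 0.06 (95% interval −0.19 to 0.10, limma adjusted p = 0.756, n = 3 per group), and it turned to 0.03 after cyclic loess and to 0.01 once quantile normalization was repeated. With arrays centred on their medians it was −0.10. Leaving out ANRIL siRNA replicate 1 gave −0.02, and leaving out replicate 2 of that group gave −0.08. On the linear scale the interval runs from 0.877 to 1.07 of the control level.

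CARD8 had 4 probe sets. At the brightest, 1554479_a_at, the values were 11.799, 11.836 and 11.794 with ANRIL siRNA and 12.002, 11.998 and 11.847 with control siRNA. The groups did not overlap, but control replicate 3 was close to the ANRIL siRNA arrays. The difference was −0.14 ± 0.07 (95% interval −0.29 to 0.01, limma adjusted p = 0.369, n = 3 per group), and it ranged from −0.19 without control replicate 3 to −0.11 without control replicate 1. At 204950_at the arrays were tightly grouped, at 10.34, 10.39 and 10.37 with ANRIL siRNA and 10.46, 10.51 and 10.46 with control siRNA. These groups did not overlap either, and the difference of −0.11 ± 0.06 (95% interval −0.25 to 0.03) had a limma adjusted p of 0.413 (n = 3 per group).

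At the other two CARD8 probe sets the value depended on single arrays. For 228641_at the values were 9.62, 9.53 and 9.32 with ANRIL siRNA and 9.61, 9.64 and 9.67 with control siRNA, with ANRIL siRNA replicate 3 the lowest. The difference of −0.15 ± 0.08 (limma adjusted p = 0.399, n = 3 per group) was −0.07 without that array and −0.22 without ANRIL siRNA replicate 1. The dim probe set 232969_at (signal percentile 33.7) read 5.34, 5.47 and 4.96 with ANRIL siRNA and 5.30, 5.28 and 5.42 with control siRNA. Its difference was −0.07 ± 0.12 (limma adjusted p = 0.792, n = 3 per group), and without ANRIL siRNA replicate 3 it turned to 0.08. Leaving out another array gave −0.12 (ANRIL siRNA replicate 1), −0.18 (replicate 2 of that group) or −0.03 (control replicate 3). The difference was −0.14 after cyclic loess and −0.12 with arrays centred on their medians. CARD8-AS1, an antisense gene at the same locus that is no member, differed by −0.05 ± 0.07 at its brighter probe set and by 0.05 ± 0.11 at its dimmer one (limma adjusted p = 0.74 and 0.856).

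**Figure D1:**
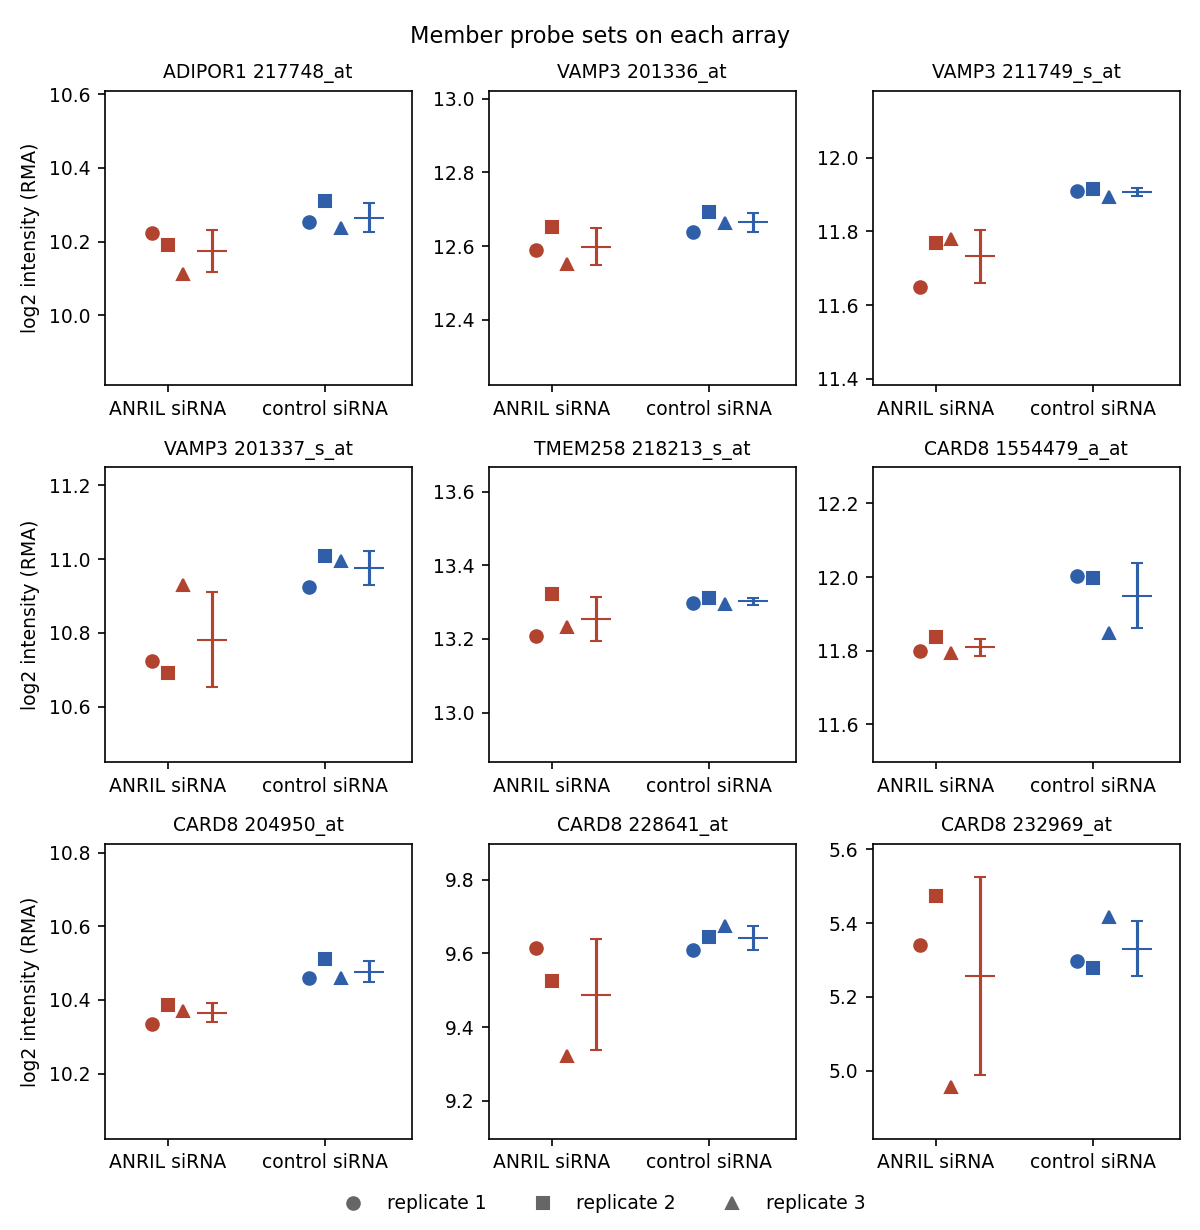
Log2 intensity (RMA) of the 9 member probe sets on each of the 6 arrays, with ANRIL siRNA in red and control siRNA in blue, marker shape for the replicate number, and group mean ± SD at the side (n = 3). Every panel spans the same range of log2 units, and the 2 groups are apart without overlap in 4 panels: ADIPOR1, VAMP3 211749_s_at, CARD8 1554479_a_at and CARD8 204950_at.

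**Figure D2:**
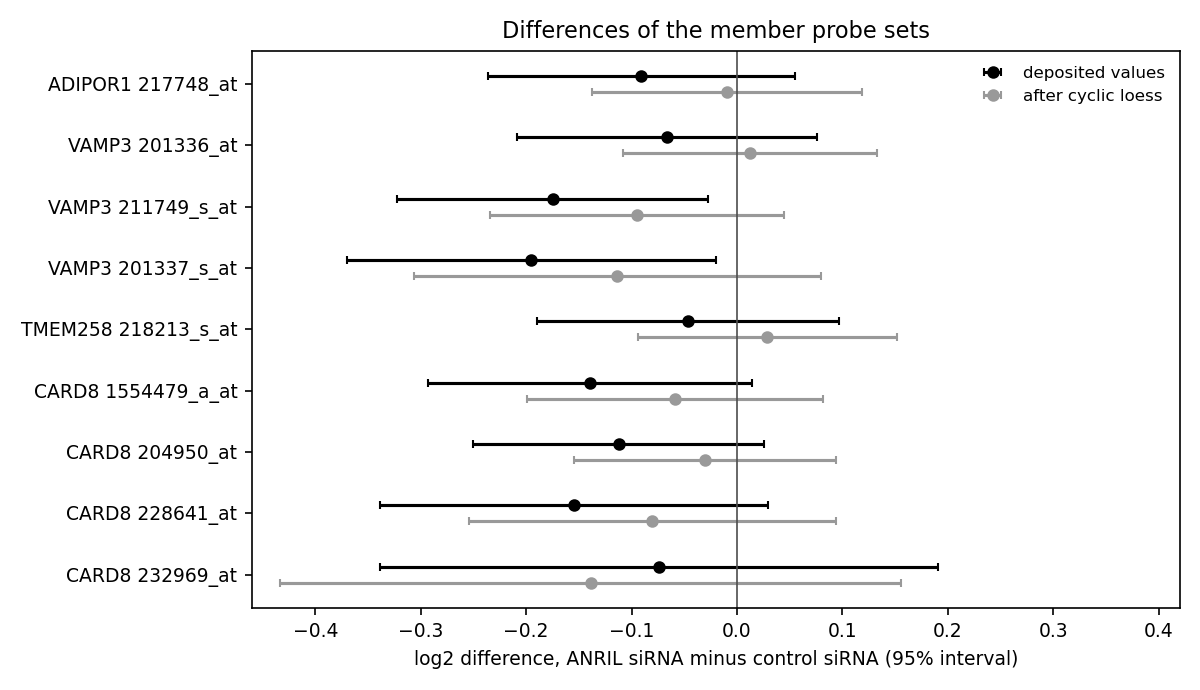
Log2 difference of each member probe set, ANRIL siRNA minus control siRNA, with its 95% interval from limma, for the deposited values (black) and after cyclic loess normalization (grey). In the deposited values the interval leaves out 0 only at VAMP3 211749_s_at and 201337_s_at, before adjustment for the number of probe sets, and after cyclic loess every interval holds 0.

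Of the 9 member probe sets, 7 lay in the brightest decile of mean signal, 1 in decile 9 and 1 in decile 4. In decile 10, 87.1% of all probe sets were below 0, with a median of −0.08, and the groups did not overlap, with ANRIL siRNA lower, at 34.8%. Each member was set against its own decile. In decile 10, 42.5% of probe sets were lower than ADIPOR1, 66.4% were lower than TMEM258 and 55.8% were lower than the brightest VAMP3 probe set. For CARD8 the shares were 20.7% at 1554479_a_at and 32.1% at 204950_at. Fewer were lower than VAMP3 211749_s_at (11.4%) and 201337_s_at (7.82%). For the other CARD8 probe sets, 17.7% of decile 9 were lower than 228641_at and 13.6% of decile 4 were lower than 232969_at. These shares describe the arrays and are no test of the members.

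Cyclic loess normalization, which removes the dependence on signal, moved the median of decile 10 to 0.00. With it, 7 of the 9 members were below 0, with a median of −0.06, and the 2 above 0 were VAMP3 201336_at (0.01 ± 0.05) and TMEM258 (0.03 ± 0.05). ADIPOR1 was then at −0.01 ± 0.06, and CARD8 at −0.06 ± 0.06 and −0.03 ± 0.05 at its brighter probe sets. The dimmer CARD8 probe sets were at −0.08 ± 0.08 and −0.14 ± 0.13. VAMP3 shrank to −0.09 ± 0.06 at 211749_s_at and to −0.11 ± 0.08 at 201337_s_at (SE, n = 3 per group, limma adjusted p = 0.577 and 0.632), and both 95% intervals then held 0.

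**Figure D3:**
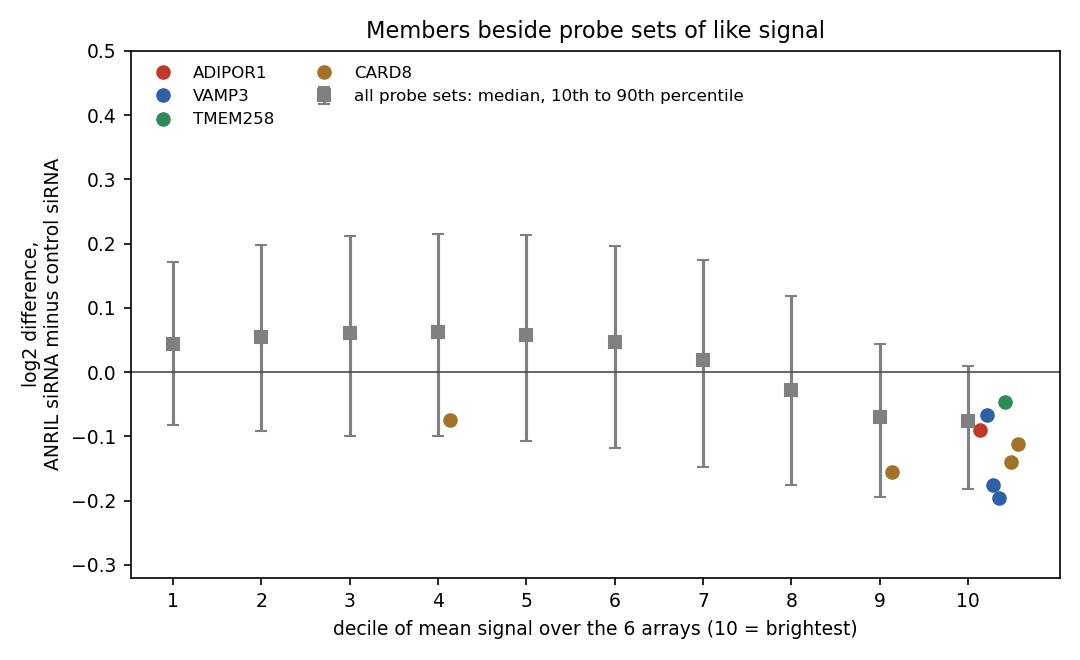
Log2 difference, ANRIL siRNA minus control siRNA, by decile of mean signal. Grey squares are the median of all probe sets in a decile with bars for percentiles 10 and 90, and coloured points are the 9 members, set slightly to the right of their decile. The grey medians lie above 0 in deciles 1 to 7 and below 0 in deciles 8 to 10, where 8 of the 9 members are.

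The genes that work with each member were read from lists, each gene by its brightest probe set, and are given as difference ± SE (n = 3 per group). Over all 19775 genes limma called 0% at an adjusted p under 0.05, while 18% had an unadjusted p under 0.05 (8.16% lower, 9.83% higher), 51.4% were below 0, the median was 0.00 and the groups did not overlap at 23.4%. Across the 8 lists 0 of the 104 measured genes passed, the members included. With the intensity-trended robust prior 2 passed, against 2.74% of all genes. Of the 41 list genes named below, 30 had several probe sets, and at 15 of them these lay on both sides of 0.

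Adiponectin receptors and their signalling partners showed no shared direction. Of 17 measured genes, ADIPOR1 among them, 8 were below 0 and 9 above, with a median of 0.00 (0.02 after cyclic loess), and 0 had an unadjusted p under 0.05. ADIPOR2, the relative of ADIPOR1 that signals through PPARA, differed by 0.02 ± 0.07 (limma adjusted p = 0.884), on the other side of 0 from ADIPOR1. The genes of smallest p were PRKAB2 (−0.13 ± 0.07), PPARGC1A (0.09 ± 0.06), PRKAA2 (0.07 ± 0.07) and APPL1 (−0.08 ± 0.07). PRKAB2 encodes a regulatory subunit of AMP-activated kinase and PRKAA2 a catalytic subunit, not the only one. PPARGC1A is a mitochondrial coactivator and APPL1 the adaptor that binds adiponectin receptors. PPARGC1A and PRKAA2 were dim, at percentiles 15.8 and 17.3 of gene signal. For PRKAB2 only 1 of 3 probe sets was below 0, and the dimmer probe set of PPARGC1A was at −0.15. Their limma adjusted p-values ran from 0.387 to 0.579. The wider PAQR family, named for its progestin and adiponectin receptors, split into 6 of 11 below 0, ADIPOR1 included, and 5 above, with a median of −0.01 (0.04 after cyclic loess). PAQR3, a Golgi protein that binds RAF kinases, was at −0.18 ± 0.09 and PAQR6, a membrane progesterone receptor, at 0.16 ± 0.07 (limma adjusted p = 0.315 and 0.284). The dimmer probe set of PAQR3 was at 0.10. PAQR4 and the dim PAQR9 (percentile 4.26 of gene signal) were at 0.10 ± 0.07 and 0.08 ± 0.07.

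Among the R-SNAREs, the class of vesicle fusion proteins to which VAMP3 belongs, 8 of 9 genes, VAMP3 included, were below 0 and the median was −0.11 (6 of 9 and −0.04 after cyclic loess). None passed, and 3 had an unadjusted p under 0.05, all lower. These were VAMP8 of late endosomes, at 10.56 ± 0.08 with ANRIL siRNA and 10.74 ± 0.07 with control siRNA (SD, n = 3 each), the lipid-anchored YKT6 (−0.18 ± 0.07) and VAMP4 of the trans-Golgi network (−0.15 ± 0.06). The differences had limma adjusted p-values of 0.226, 0.235 and 0.247, and at VAMP4 1 of 3 probe sets lay above 0. The exception in sign was VAMP2, the close relative of VAMP3 that releases synaptic vesicles, at 0.12 ± 0.06 (limma adjusted p = 0.326), with all 3 of its probe sets above 0. VAMP5 was at −0.12 ± 0.06 at its brightest probe set and 0.32 ± 0.10 at the dimmer one.

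The proteins that pair with VAMP3 or carry it through recycling endosomes were below 0 at 21 of 25 genes, with a median of −0.05, but that median was 0.02 and 10 of 25 were below 0 after cyclic loess. RAB4A, the small GTPase of fast recycling, had the largest difference, at −0.23 ± 0.06, with 9.83 ± 0.05 for ANRIL siRNA and 10.06 ± 0.07 for control siRNA (SD, n = 3 each, limma adjusted p = 0.156). All 3 of its probe sets were below 0. It passed with an intensity-trended robust prior (adjusted p = 0.0304). After cyclic loess with that prior RAB4A was at −0.15 and did not pass (adjusted p = 0.105). SNAP29, a SNARE of autophagosome fusion, was at −0.20 ± 0.06, STXBP3, which binds syntaxin 4, at −0.13 ± 0.06, and the GTPase ARF6 at −0.11 ± 0.06, with limma adjusted p-values of 0.174 to 0.335. SNAP23, the partner of VAMP3 at the plasma membrane, was at −0.09 ± 0.06 and STX4 at −0.07 ± 0.06 (limma adjusted p = 0.442 and 0.57). All 4 probe sets of SNAP23 were below 0, while the dimmer STX4 probe set was at 0.26 ± 0.07 (limma adjusted p = 0.22 over all probe sets).

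The 11 other subunits of the oligosaccharyltransferase had a median of −0.05, beside −0.05 for TMEM258. Of the 11, 9 were below 0, but 1 of 11 was below 0 after cyclic loess, when the median was 0.03. The catalytic subunits STT3A and STT3B were at −0.01 ± 0.06 and −0.02 ± 0.06, and the small subunits OST4, OSTC and KRTCAP2 at −0.07 ± 0.06 each (limma adjusted p = 0.537, 0.539 and 0.545). TUSC3, an oxidoreductase subunit, lay apart at −0.19 ± 0.07 (limma adjusted p = 0.2), carried by its brighter probe sets, and it was at −0.11 after cyclic loess. The genes near TMEM258 on 11q12 went both ways, with 3 of 7 below 0 and a median of 0.01 (0.09 after cyclic loess), TMEM258 left out. MYRF, a transcription factor known from myelin-forming cells, read 7.28 ± 0.10 with ANRIL siRNA and 7.01 ± 0.09 with control siRNA, a difference of 0.28 ± 0.07 (n = 3 per group, limma adjusted p = 0.154), and its dimmer probe sets were at 0.07 and 0.05. RAB3IL1 was at 0.17 ± 0.06, the desaturase family gene FADS3 at −0.18 ± 0.06 and the chloride channel BEST1 at 0.08 ± 0.08.

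Inflammasome genes around CARD8 were below 0 at 10 of 19, with a median of −0.03 (7 of 19 and 0.02 after cyclic loess), CARD8 left out. CARD16, a CARD-only protein that binds caspase-1, read 7.71 ± 0.07 with ANRIL siRNA and 7.99 ± 0.12 with control siRNA. The difference was −0.28 ± 0.08 (n = 3 per group, limma adjusted p = 0.154), and its dimmer probe set was at 0.01. It passed with the intensity-trended robust prior (adjusted p = 0.046). After cyclic loess with that prior CARD16 was at −0.26, nearly as far below 0, and did not pass (adjusted p = 0.098). CASP4, the sensor of intracellular lipopolysaccharide, was at −0.17 ± 0.06, and the dim probe sets of NLRP3 and AIM2 were at 0.25 ± 0.10 and 0.11 ± 0.06 (limma adjusted p = 0.203, 0.244 and 0.331). The dimmer CASP4 probe set was at −0.002. NLRP1, the relative of CARD8, was at −0.07 ± 0.06, and DPP8 and DPP9, the peptidases that hold CARD8 and NLRP1 inactive, were at −0.03 ± 0.08 and 0.05 ± 0.08 (limma adjusted p = 0.575 for NLRP1, 0.863 for DPP8 and 0.743 for DPP9). Their dimmer probe sets went both ways, with one NLRP1 probe set at 0.35 ± 0.09 and one DPP9 probe set at −0.30 ± 0.11 (limma adjusted p = 0.22 and 0.279 over all probe sets).

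The genes beside ANRIL itself were below 0 at 5 of 5, ANRIL included, with a median of −0.10. After cyclic loess 5 of 5 were below 0, with a median of −0.07. MTAP turned to 0.00, just above 0, once quantile normalization was repeated. CDKN2A was at −0.15 ± 0.06, DMRTA1 at −0.18 ± 0.09, CDKN2B at −0.10 ± 0.06 and MTAP at −0.06 ± 0.07 (its other probe sets ran from −0.17 to 0.25), and none passed (limma adjusted p = 0.237 to 0.657).

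**Figure D4:**
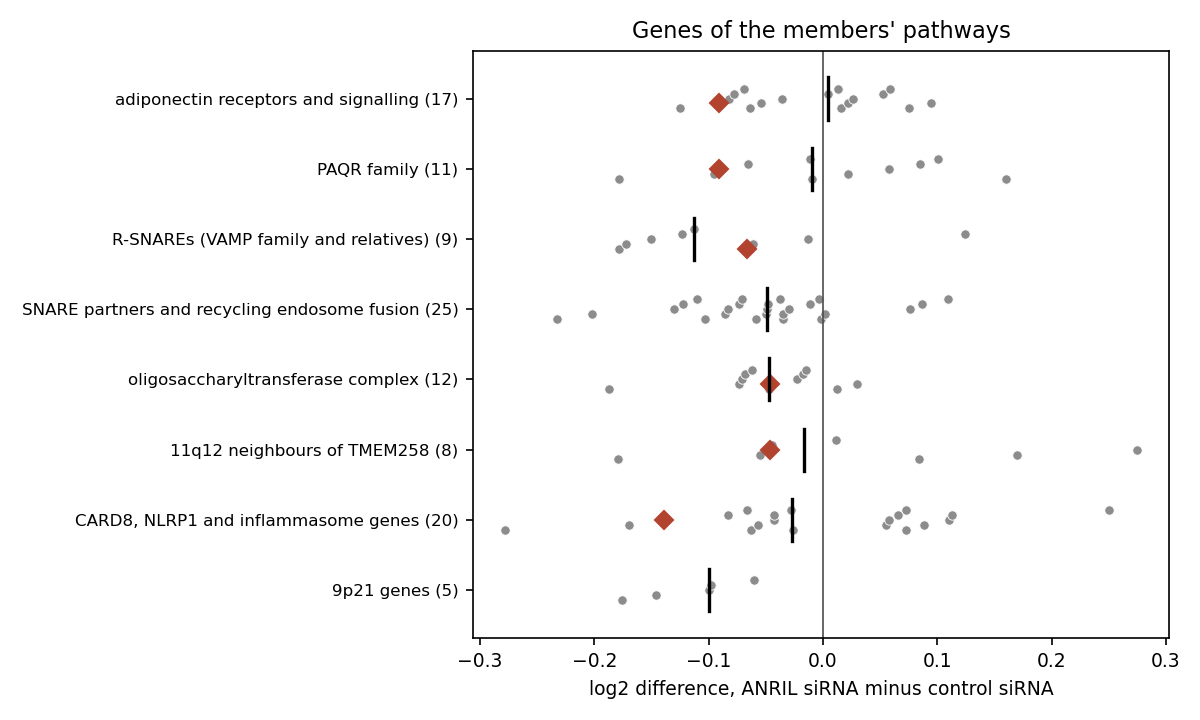
Log2 difference, ANRIL siRNA minus control siRNA, of each gene in the 8 lists, by its brightest probe set, with the number of measured genes in brackets. Red diamonds are ADIPOR1, VAMP3, TMEM258 and CARD8 and black bars are list medians; the R-SNARE median lies at −0.11 and that of the adiponectin list at 0.00.

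Across the 6 arrays the brightest probe sets of the members varied together to different degrees, with Pearson r of 0.853 between VAMP3 and TMEM258, 0.824 between ADIPOR1 and VAMP3, and 0.473 between ADIPOR1 and TMEM258. These are descriptions over 6 arrays that share the siRNA groups and the trend with signal. Probe sets of 1 gene did not follow each other more closely, with r from 0.3 to 0.814 within VAMP3 and from 0.136 to 0.838 within CARD8. The low end in CARD8 came from its dim probe set 232969_at, and among its brighter probe sets r ran from 0.481 to 0.838. Of 9886 other genes above the median signal, those most like ADIPOR1 were ZNF121, TNRC6A and SLC44A5 (r = 0.993, 0.992 and 0.991). For VAMP3 they were TIMMDC1, GRB10 and TMEM204 (r = 0.999, 0.998 and 0.998), for TMEM258 PSMA5, STARD10 and SSBP1 (r = 0.995, 0.994 and 0.994), and for CARD8 SEPTIN10, MFN1 and CALD1 (r = 0.999, 0.993 and 0.991). An r over 0.95 was reached by 147 genes for ADIPOR1, 446 for VAMP3, 104 for TMEM258 and 130 for CARD8.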

How the data were processed

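The deposited values are log2 intensities of 54675 probe sets, 6 arrays in all. According to the submitters' processing notes, the authors used RMA, affy and limma, with versions not given in the sources used here. The number of arrays limits the precision. Leaving out 62 control probe sets, 54613 entered the tests. Symbols came from the platform annotation, updated by Entrez identifier through the RefSeq table of GRCh38.p14, and 41037 of 41091 probe sets with 1 symbol matched. Those with several symbols (1801) named no gene. No probe set carried 1 symbol for 6 listed pathway genes, which were not analysed here.

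Differences came from limma 3.58.1 (lmFit, then eBayes) under R 4.3.3, without the replicate number, with p-values adjusted by the Benjamini-Hochberg method over all probe sets, or over all genes for the lists. All such p-values are two-sided. The fit was tested on simulated data. Named list genes were the 4 of smallest p in each list besides the members, ADIPOR2, STX4, SNAP23, NLRP1, DPP8, DPP9, STT3A, STT3B and VAMP2 being named for their role after their values were seen. The members and lists were chosen with earlier results of these data known. Cyclic loess with the trended prior was added with the data in view. The other alternatives were an intensity-trended robust prior, a replicate block, array weights, cyclic loess, repeated quantile normalization, median centring, a signal filter, other ways to represent a gene, a threshold of 0.1 and each array left out.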

Additional observations from a re-analysis of the deposited data

How the results depend on the processing

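No member probe set passed in any of the 14 alternatives, where the lowest adjusted p was 0.076 (VAMP3 211749_s_at, intensity-trended robust prior). Of 125 recomputed differences 119 kept their sign and side of the threshold and 6 turned. The brightest VAMP3 probe set was at 0.0121 after cyclic loess, with either prior. TMEM258 was at 0.0289 after cyclic loess, with either prior, and at 0.0126 after repeated quantile normalization. CARD8 232969_at ran from −0.182 to 0.0763 with each array left out, the upper end without ANRIL siRNA replicate 3. The cause of these turns was not tested. The count of probe sets called over the table, 0 in the deposited values, was 344 with the trended robust prior, 4 with arrays centred on their medians, 1 above the median signal and 78 after cyclic loess with the trended prior. The count of genes called, also 0, was 541, 32, 309 and 134 under these settings in turn. Of the list genes, 2 (CARD16 and RAB4A) passed with the trended robust prior and above the median signal. The replicate numbers were not taken to pair the samples. Deviations of same-numbered arrays correlated at 0.0611, 0.139 and −0.0398, and those of other-numbered arrays at −0.184 to 0.139. With 3 arrays per group these correlations cannot decide whether the samples were paired. With the replicate block 0 probe sets and 0 genes were called, and the adjusted p was 0.5 for ADIPOR1, 0.616 for VAMP3, 0.736 for TMEM258 and 0.353 for CARD8 at their brightest probe sets.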
